A study of Mus musculus with 6 samples.

Results

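The genes examined here are the partners of the small Maf transcription factors and the ubiquitin ligase that governs one of them: the CNC genes Nfe2, Nfe2l1, Nfe2l2 and Nfe2l3, the Bach genes Bach1 and Bach2, and Keap1, Cul3 and Rbx1. They were listed by name and not by a cut on measured values, but with earlier results of these data known. Of these 9 genes, 8 had a probe that could be matched to them by transcript accession, and all 8 were among the 21058 genes and unmatched transcripts tested in liver RNA. Bach2 was not analysed here. The 8 genes were read by 12 probes, each well above background on enough arrays to be kept and none of them saturated. Nfe2, Nfe2l1, Bach1, Keap1 and Cul3 each had a single probe, so their values could not be compared with another probe.

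Liver RNA was hybridised to 6 one-colour arrays. In 3 of them the RNA came from sMaf CKO mice, in which small Maf genes were knocked out in the liver, and in 3 from wild-type mice that served as control. All mice were 5 weeks old and of a mixed 129Sv/J, C57BL/6J and ICR background. The labels state neither which small Maf genes were deleted, nor the promoter that drove the deletion, nor the sex of the mice. The submitters call the 3 RNA samples of a genotype independent. No label says outright that each came from its own mouse, so the p-values measure the spread between these samples.

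Small Maf proteins have a DNA-binding leucine zipper but no activation domain, and they bind antioxidant and Maf recognition elements as dimers with the CNC and Bach proteins. The CNC proteins activate transcription from these elements, whereas the Bach proteins repress it. NRF2, the product of Nfe2l2, is held at a low level by KEAP1, which presents it to a ligase built on the cullin CUL3 and the RING protein RBX1. Electrophiles and oxidants disable KEAP1, so that NRF2 accumulates and activates genes of glutathione synthesis, conjugation and quinone reduction in liver. This control acts largely on the protein, which an RNA array does not measure.

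Levels are log2 signals relative to the 75th percentile of the probes on the same array, so a level is comparable between arrays for one probe but not between probes. A difference is the sMaf CKO mean minus the control mean, and its adjusted p comes from limma over all 21058 genes tested, and values under 0.05 count as passing. Slide 1 carried replicates 1 and 2 of each genotype, and slide 2 carried the replicate 3 arrays. A difference within slide 2 therefore sets 1 array against 1, and the small number of arrays limits the precision of every value. Before scaling, the 75th percentile of the signal was 960.5, 668.0 and 484.4 on sMaf CKO arrays 1, 2 and 3, and 581.2, 609.3 and 483.4 on control arrays 1, 2 and 3. Mafg, the small Maf gene with the widest gap between genotypes, had levels of -2.97, -4.36 and -0.76 on the sMaf CKO arrays, against 1.88, 1.87 and 2.23 on the control arrays. The sMaf CKO arrays thus kept 3.20%, 1.22% and 14.8% of the Mafg signal at the control mean log2 level, so sMaf CKO replicate 3 had the most Mafg of the 3. The difference was -4.69 (SE 0.79, adjusted p = 0.0533), just over the threshold, while a slide block put it under (adjusted p = 0.0207). Maff and Mafk differed by 0.15 (adjusted p = 0.911) and 0.21 (adjusted p = 0.759).

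None of the 8 genes passed the threshold, a result read against 114 called genes of 21058, or 0.541% of those tested. Nfe2l2, Bach1, Keap1 and Cul3 had an unadjusted p under 0.05, which 16.8% of all genes tested had. At 75th percentile scaling the same 4 genes had sMaf CKO arrays that did not overlap the control arrays, a property shared by 22.9% of all genes. Under spike-in scaling the arrays of Nfe2l2 stayed apart, while those of Bach1, Keap1 and Cul3 overlapped between genotypes. Among these 4, Nfe2l2 was higher in sMaf CKO liver, while Bach1, Keap1 and Cul3 were lower. Across the 8 genes, 2 differences were positive and 6 negative, with a median of -0.36 beside -0.05 over all genes tested. That median was -0.05 beside 0.26 over all genes under spike-in scaling, -0.10 without sMaf CKO replicate 1, and 0.12 within slide 2. With slide as a block the share of genes called was 1.61%, and at the level of single probes it was 0.424%. None of the 8 genes passed with that block, and none of their 12 probes passed when tested singly.

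**Figure D1:**
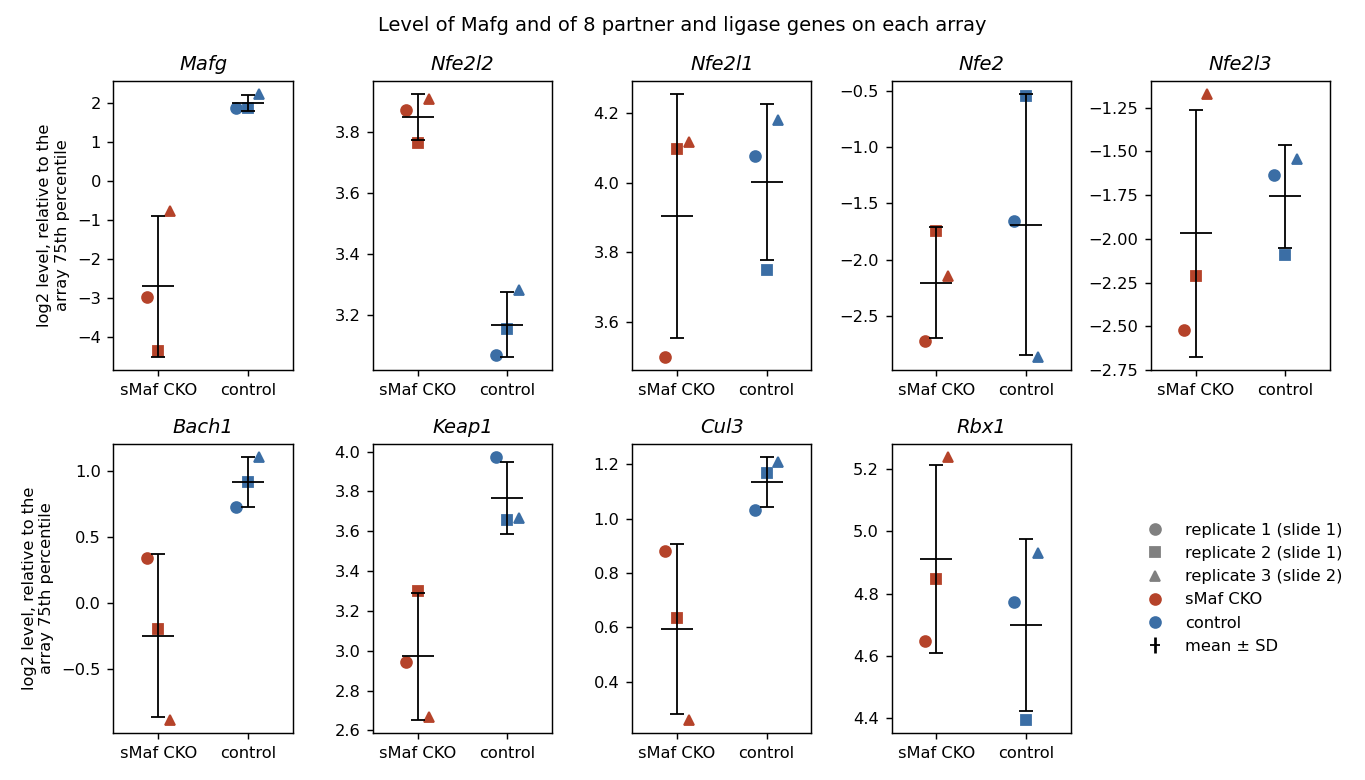
Log2 level relative to the array's 75th percentile of Mafg, in the first panel, and of each of the 8 genes, with sMaf CKO arrays left of control arrays in every panel. Points are single arrays, with a symbol for each replicate number, and bars give the mean and SD of 3 arrays. Each panel has its own vertical scale, so heights are not comparable between genes. The sMaf CKO arrays lie above all control arrays for Nfe2l2 and below all of them for Mafg, Bach1, Keap1 and Cul3, and the genotypes overlap for the other 4 genes.

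Nfe2l2 encodes NRF2, the CNC activator of antioxidant and detoxification genes. Its level was 3.87, 3.76 and 3.91 on sMaf CKO arrays 1, 2 and 3, against 3.07, 3.16 and 3.28 on control arrays 1, 2 and 3. All sMaf CKO arrays were above all control arrays, and the values within each genotype lay close together. The means were 3.85 ± 0.08 in sMaf CKO and 3.17 ± 0.11 in control liver (SD, n = 3 each), a difference of 0.68 (SE 0.20, 95% confidence interval 0.22 to 1.14). This 1.60-fold difference ranked 1173 among the genes tested by p and did not pass (limma adjusted p = 0.167). As a share of the control mean signal, the sMaf CKO arrays stood at 163.0%, 150.9% and 166.9%, and the control arrays at 93.4%, 99.1% and 108.1%.

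A second Nfe2l2 probe gave almost the same picture. It read 3.53, 3.41 and 3.47 on the sMaf CKO arrays, against 2.73, 2.86 and 2.89 on the control arrays, a difference of 0.65 (SE 0.20, adjusted p = 0.182). Both probes put the genotypes apart by about the same amount, and neither passed the threshold. The difference of the brighter probe was 0.71 within slide 1 and 0.63 within slide 2, and the sMaf CKO array of slide 2 was the one with the most Mafg signal left.

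The promoter of Nfe2l2 is printed because NRF2 is known to act on antioxidant elements in its own gene. It runs from 250 bases before to 50 bases after the start of transcription, read along the gene, and is RefSeq sequence of build GRCm38.p6 at chr2:75704614-75704913 on the minus strand. Capitals mark the core of an antioxidant response element, TGACNNNGC, found on the plus strand of this window with its first base at -240 from the start.
Nfe2l2: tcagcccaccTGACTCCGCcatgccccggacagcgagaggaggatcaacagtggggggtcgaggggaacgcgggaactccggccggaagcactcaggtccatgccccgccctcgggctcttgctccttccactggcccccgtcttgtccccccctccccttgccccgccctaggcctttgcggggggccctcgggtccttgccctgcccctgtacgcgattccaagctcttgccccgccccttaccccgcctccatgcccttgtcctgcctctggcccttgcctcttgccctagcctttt
This core was searched on both strands and occurs in 12.4% of all 32851 RefSeq promoter windows of 300 bases. The window holds neither an AP-1 type core, TGANTCA, which 7.81% of promoters hold, nor TGACGTCA, the CRE type core, which 1.79% hold. No binding was measured, so the match is a description of the letters only.

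Nfe2l1 encodes NRF1, a CNC factor anchored in the endoplasmic reticulum that is known for activating proteasome genes. Its level was 3.498, 4.10 and 4.12 on the sMaf CKO arrays, against 4.08, 3.75 and 4.18 on the control arrays. The genotypes overlapped, with sMaf CKO replicate 1 the lowest of all 6 arrays and control replicate 3 the highest. The means were 3.90 ± 0.35 in sMaf CKO and 4.003 ± 0.22 in control liver (SD, n = 3 each), a difference of -0.10 with an interval of -0.70 to 0.50 (adjusted p = 0.877). The interval leaves room for a difference of the size seen in Nfe2l2 downward but not upward, and the sign turned to 0.10 under quantile normalization and 0.22 under spike-in scaling.

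Nfe2 encodes p45 NF-E2, the founding CNC factor, which works in erythroid cells and megakaryocytes. Its level was -2.72, -1.74 and -2.15 on the sMaf CKO arrays, against -1.66, -0.55 and -2.87 on the control arrays. All sMaf CKO arrays lay within the range of the control arrays, with control replicate 2 the highest and control replicate 3 the lowest of the 6. The difference was -0.51 (SE 0.56, adjusted p = 0.679), made up of -1.13 within slide 1 and 0.72 within slide 2. Erythroid marker signal, summed over 10 genes with a probe, was 133 to 281 times the 75th percentile on sMaf CKO arrays and 93.0 to 212 times on control arrays. The megakaryocyte and platelet sum over 10 genes was 9.19 to 10.9 on sMaf CKO arrays and 6.49 to 10.8 on control arrays. Most of that sum was Clec1b on every array. The log2 level of Clec1b was 2.87, 2.79 and 3.11 on the sMaf CKO arrays, against 2.20, 2.57 and 2.59 on the control arrays. Of the 10 genes in that list, 3 differences were positive and 7 negative, with a median of -0.33. This median was 0.22 without control replicate 2 and 0.39 within slide 2. Of 8 tested erythroid markers 0 passed, with 3 positive and 5 negative differences and a median of -0.20. That median was 0.54 with only probes well above background on all 6 arrays, and 0.68 without control replicate 2. The smallest p belonged to Klf1, a master regulator of red cell genes, at -1.56 (adjusted p = 0.143). Both sums overlapped between genotypes, and their part in the Nfe2 values was not tested.

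Nfe2l3 encodes NRF3, a CNC factor related to NRF1. The brighter of its 2 probes read -2.52, -2.21 and -1.17 on the sMaf CKO arrays, against -1.63, -2.09 and -1.54 on the control arrays. The genotypes overlapped, and sMaf CKO replicates held both the lowest and the highest value. The difference was -0.21 (SE 0.37, adjusted p = 0.806), with -0.51 within slide 1 and 0.37 within slide 2. The dimmer probe was well above background on only 1 sMaf CKO and 2 control arrays. It differed by -0.57 (adjusted p = 0.668), with -1.35 within slide 1 and 1.01 within slide 2.

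Bach1 encodes the haem-sensitive repressor that occupies Maf recognition elements of haem oxygenase and iron genes until haem displaces it. Its level was 0.34, -0.20 and -0.88 on the sMaf CKO arrays, against 0.72, 0.91 and 1.10 on the control arrays. Every sMaf CKO array was below every control array, but the sMaf CKO arrays were spread over a wide range, with replicate 3 the lowest and replicate 1 the highest. The means were -0.25 ± 0.61 in sMaf CKO and 0.91 ± 0.19 in control liver (SD, n = 3 each). The difference of -1.16 (SE 0.33, 95% confidence interval -1.93 to -0.40) corresponds to a 2.24-fold lower signal and did not pass (adjusted p = 0.160). The sMaf CKO arrays stood at 67.3%, 46.2% and 28.8% of the control mean signal, and the control arrays at 87.6%, 100.01% and 114.1%. The difference was -0.75 within slide 1 and -1.99 within slide 2, so the lone pair of arrays on slide 2 gave the wider separation.

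The Bach1 promoter is shown beside that of Nfe2l2 because it holds none of the 3 cores searched. It is RefSeq sequence of build GRCm38.p6 at chr16:87698704-87699003 on the plus strand, read along the gene and all in lower case, since nothing in it matched.
Bach1: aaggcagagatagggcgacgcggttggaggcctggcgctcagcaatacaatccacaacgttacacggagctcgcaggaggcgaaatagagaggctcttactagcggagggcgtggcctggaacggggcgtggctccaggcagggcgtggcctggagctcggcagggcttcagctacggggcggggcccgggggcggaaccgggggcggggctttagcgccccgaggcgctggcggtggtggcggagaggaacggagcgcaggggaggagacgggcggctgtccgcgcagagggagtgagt

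Keap1 encodes the adaptor that senses electrophiles through its cysteines and delivers NRF2 to the ligase. Its level was 2.95, 3.30 and 2.67 on the sMaf CKO arrays, against 3.97, 3.66 and 3.67 on the control arrays. The highest sMaf CKO array, replicate 2, stayed below the lowest control array. The means were 2.97 ± 0.32 in sMaf CKO and 3.77 ± 0.18 in control liver (SD, n = 3 each), a difference of -0.79 (SE 0.24, 95% confidence interval -1.36 to -0.23) or 1.73-fold, which did not pass (adjusted p = 0.182). The sMaf CKO arrays stood at 56.6%, 72.5% and 46.7% of the control mean signal, and the control arrays at 115.5%, 92.8% and 93.3%. The sign was the same on both slides, at -0.69 within slide 1 and -0.999 within slide 2.

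The Keap1 promoter, too, holds none of the 3 cores and is printed for that contrast with Nfe2l2. It is RefSeq sequence of build GRCm38.p6 at chr9:21239283-21239582 on the minus strand, read along the gene.
Keap1: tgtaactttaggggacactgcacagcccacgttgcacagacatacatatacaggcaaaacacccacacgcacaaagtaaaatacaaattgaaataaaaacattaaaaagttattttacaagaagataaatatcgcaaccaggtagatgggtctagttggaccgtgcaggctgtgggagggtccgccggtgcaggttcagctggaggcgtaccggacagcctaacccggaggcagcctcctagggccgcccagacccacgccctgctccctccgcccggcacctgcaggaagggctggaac
Of the 9 genes, 8 have a promoter window in the RefSeq table, in 12 windows counting separate starts. That of Nfe2l2 was the only one in which any of the 3 cores was found. Over all 27025 genes with a window, 14.0% hold the antioxidant core in some window. A single gene among these 8 is near that share, so the count does not set them apart. Absence of the letters from a window says nothing of binding elsewhere.

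Cul3 encodes the cullin scaffold that joins KEAP1 and many other BTB adaptors to RBX1. Its level was 0.88, 0.64 and 0.26 on the sMaf CKO arrays, against 1.03, 1.17 and 1.21 on the control arrays. The genotypes did not overlap, though sMaf CKO replicate 1 came near control replicate 1. The difference was -0.54 (SE 0.23, 95% confidence interval -1.09 to -0.002), with an adjusted p of 0.296. The sMaf CKO arrays stood at 83.8%, 70.7% and 54.5% of the control mean signal, and the control arrays at 93.1%, 102.1% and 105.1%. Slide 1 alone gave -0.34 and slide 2 alone -0.95, and spike-in scaling gave -0.23.

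Rbx1 encodes the RING subunit that recruits the ubiquitin-charged enzyme and serves most cullins. Its brightest probe read 4.65, 4.85 and 5.24 on the sMaf CKO arrays, against 4.77, 4.40 and 4.93 on the control arrays. The genotypes overlapped, and the difference was 0.21 (SE 0.25, 95% confidence interval -0.38 to 0.80, adjusted p = 0.712). A second probe differed by 0.23 (adjusted p = 0.671) and the third, which was dimmer, by -0.12 (adjusted p = 0.803), so the probes of this gene did not share a sign. Among the ligase subunits, then, Keap1 and Cul3 were lower in all sMaf CKO arrays than in all control arrays at 75th percentile scaling, and Rbx1 was not. Under spike-in scaling Keap1 and Cul3 overlapped between genotypes. Their differences there were -0.48 (SE 0.48, limma adjusted p = 0.868) and -0.23 (SE 0.51, adjusted p = 0.950).

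**Figure D2:**
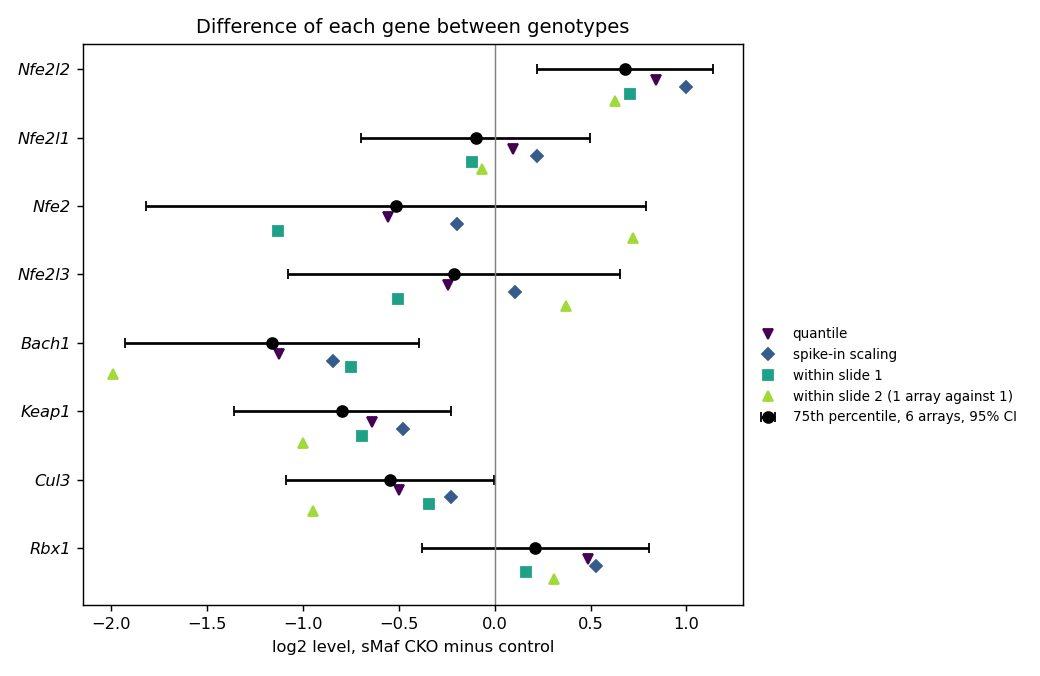
Difference in log2 level, sMaf CKO minus control, for each of the 8 genes. Black points are the values under 75th percentile scaling with limma's 95% confidence interval, and coloured symbols are the values under quantile normalization, spike-in scaling and within each slide, where slide 2 is 1 array against 1. Nfe2l2 and Rbx1 lie right of 0, and Bach1, Keap1 and Cul3 left of it, in every setting drawn, while Nfe2l1, Nfe2 and Nfe2l3 lie on both sides.

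Because Nfe2l2 was higher and Keap1, Bach1 and Cul3 were lower, the ratio of Nfe2l2 to each was formed within an array, where the scaling between arrays cancels. These pairs were chosen after the values had been seen, so the ratios describe the arrays and add no independent evidence. The log2 ratio of Nfe2l2 to Keap1, minus its control mean, was 1.53, 1.06 and 1.84 on the sMaf CKO arrays, against -0.31, 0.09 and 0.21 on the control arrays. The sMaf CKO arrays were all higher, by 1.47 on average or 2.78-fold, with 1.40 within slide 1 and 1.62 within slide 2. The ratio to Bach1 was 1.28, 1.71 and 2.54 on the sMaf CKO arrays, against 0.09, -0.01 and -0.08 on the control arrays, a mean difference of 1.84 or 3.58-fold. The ratio to Cul3 was 0.96, 1.09 and 1.62 on the sMaf CKO arrays, against 0.00, -0.04 and 0.04 on the control arrays, a mean difference of 1.22 or 2.33-fold. For Bach1 and Cul3 the control arrays hardly varied, while sMaf CKO replicate 3 had the highest ratio to each of Keap1, Bach1 and Cul3. The ratio to Nfe2l1, another CNC gene, was 1.21, 0.50 and 0.62 on the sMaf CKO arrays, against -0.17, 0.24 and -0.07 on the control arrays, a mean difference of 0.78 or 1.71-fold. With 3 arrays against 3, an exact permutation test (two-sided) gave p = 0.1 for each of these 4 ratios, unchanged by Benjamini-Hochberg adjustment over the 4 and the smallest value that 20 assignments allow. For the ratios to Keap1, Bach1 and Cul3 this outcome was fixed by the choice of pairs. Each paired genes whose genotypes did not overlap, in opposite directions, so the test adds nothing there. The ratio to Nfe2l1 was likewise formed with the values of Nfe2l2 known, so its test adds no independent evidence.

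**Figure D3:**
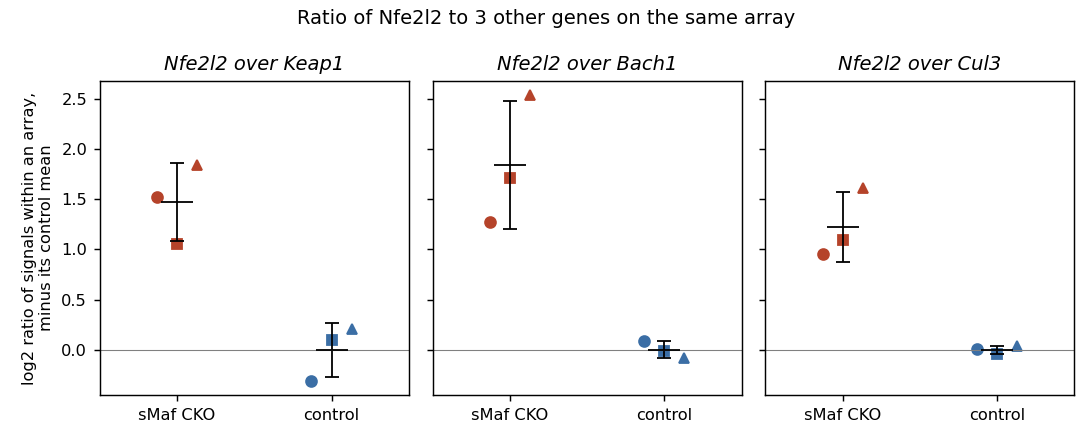
Log2 ratio of Nfe2l2 to Keap1, Bach1 and Cul3 within each array, minus the control mean of that ratio, with sMaf CKO left of control. Circles, squares and triangles are replicates 1, 2 and 3, and bars give the mean and SD of 3 arrays. In each panel all 3 sMaf CKO arrays lie above all 3 control arrays, with mean differences of 1.47, 1.84 and 1.22.

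The genes whose 6 array values ran closest to those of Nfe2l2, Bach1 and Keap1 were found by the mean absolute difference of values centred on the control mean, over 13833 genes with a symbol. Nearest to Nfe2l2 were Gjc1, a gap junction gene (distance 0.0357, difference 0.63), Siah1b, a RING ligase gene (0.0480, difference 0.69), and Arhgef25 (0.0594, difference 0.71). Nearest to Keap1 were Aqp9, the hepatocyte glycerol channel (0.0601, difference -0.71), Clcn7, a lysosomal chloride transporter gene (0.0813, difference -0.73), and Prkacb, a catalytic subunit gene of protein kinase A (0.0892, difference -0.76). Nearest to Bach1 were N4bp2 (0.121, difference -1.33), Cabp4 (0.158, difference -0.99, but -0.011 with normexp background correction, and not well above background on every array) and Mpdz, a scaffold protein gene of cell junctions (0.166, difference -1.34). The distances for Bach1 were larger than for the others, and its sMaf CKO arrays were the more widely spread.

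Of 7 other cullin and RING genes tested, 0 passed in either direction, with a median difference of -0.14 (0.18 under spike-in scaling), and the smallest p belonged to Cul4a (-0.36, adjusted p = 0.440) and Cul1 (-0.45, adjusted p = 0.473). Of 22 genes of neddylation and cullin exchange, 0 passed and the median was -0.05, or 0.11 under quantile normalization and 0.27 under spike-in scaling. Cand2, a cullin exchange factor, had the largest difference there, at 1.99 (SE 0.49, adjusted p = 0.125). A slide block brought it past the threshold (adjusted p = 0.0194), whereas Dcun1d4, a neddylation factor, was at -0.64 (adjusted p = 0.200). Of 24 other BTB adaptors of CUL3, 0 passed and the median was -0.16, or 0.15 under spike-in scaling. Enc1, a kelch adaptor, was at 1.70 (adjusted p = 0.0853) and Klhl21, an adaptor used in cell division, at -1.10 (adjusted p = 0.157).

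Of 18 genes known to act on NRF2 stability outside the ligase, 1 rose and 0 fell. The one that rose was Cdkn1a, which encodes p21, a cell cycle inhibitor that can bind NRF2. Its level was 1.84, 1.19 and 1.28 on the sMaf CKO arrays, against -2.78, -2.17 and -2.55 on the control arrays. The genotypes were far apart, by 3.94 (SE 0.27, adjusted p = 0.0086), and the median of the list was 0.13. With no filter on dim probes its adjusted p was 0.0518, and those of Gsta2, Gsta1, Hmox1, Ces1g and Atf3 also missed the threshold. Of 9 coactivators and corepressors, 0 passed, and Ncoa3 and Rxra had the smallest p with differences of 0.33 and -0.34.

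Among 34 tested genes linked to NRF2, 3 rose and 1 fell, while the median of the list was -0.39 and 21 differences were negative. With slide as a block 3 rose and 3 fell, as also under median scaling, the filter on all 6 arrays and the trend and robust settings. Gsta2 and Gsta1, glutathione S-transferases of the alpha class, rose by 4.44 and 2.93 (adjusted p = 0.0117 for both). Their sequences are close, so their probes may read each other's transcripts. Ces1g, a carboxylesterase, fell by 1.89 on the log2 scale (adjusted p = 0.0361). Genes of this list thus stood on both sides of 0. An unadjusted p under 0.05 was found for 19 of the 34, beside 16.8% of all genes tested, and most of these 19 were lower in sMaf CKO liver. Hmox1, which encodes haem oxygenase and belongs to the NRF2 and the BACH1 lists alike, was at 6.92, 5.83 and 5.604 on the sMaf CKO arrays, against 3.19, 3.21 and 2.56 on the control arrays. It rose by 3.13 (SE 0.38, adjusted p = 0.0344), and of the 13 tested BACH1-linked genes no other passed. With slide as a block and with the filter on all 6 arrays, 2 of the 13 passed, Hmox1 among them. The median of that list was -0.47, with 3 positive and 10 negative differences. The call on Hmox1 was lost without control replicate 1 (3.23, adjusted p = 0.143), without control replicate 3 (2.92, adjusted p = 0.0884), without sMaf CKO replicate 1 (2.73, adjusted p = 0.0858) and without sMaf CKO replicate 2 (3.27, adjusted p = 0.0840). It was also lost under quantile normalization (3.38, adjusted p = 0.0628) and spike-in scaling (3.45, adjusted p = 0.113), as were those on Gsta1 (3.25, adjusted p = 0.0546) and Ces1g (-1.57, adjusted p = 0.316) under spike-in scaling. Without sMaf CKO replicate 1 none of the NRF2-linked genes passed, and without sMaf CKO replicate 2 likewise 0 rose and 0 fell. The call on Ces1g was lost as well without control replicate 1 (-1.74, adjusted p = 0.143) or control replicate 3 (-1.88, adjusted p = 0.113). The same 2 lists had medians of -0.11 and -0.09 under quantile normalization.

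VCP and NGLY1 act in the processing of NRF1, which is anchored in the endoplasmic reticulum. Of 9 genes for NRF1 processing and degradation 0 passed, with a median of -0.18 that became 0.14 under spike-in scaling. Vcp itself was at -0.48 (adjusted p = 0.332) and Ngly1 at -0.35 (adjusted p = 0.461). Proteasome genes, the best known targets of NRF1, had 33 negative and 2 positive differences among 35 tested, with a median of -0.49. That list held mostly subunit genes, with some assembly chaperone genes of the regulatory particle. None passed, and the smallest p belonged to Psmd1 (-0.80, adjusted p = 0.151) and Psmd7 (-0.74, adjusted p = 0.159), both of the regulatory particle. The median was -0.24 under quantile normalization and -0.18 under spike-in scaling.

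Other bZIP factors can compete for such elements or share them. Of 13 tested, 10 differences were positive and the median was 0.70. Atf3, a stress-induced factor of the ATF family, was at 2.03, 2.33 and 0.65 on the sMaf CKO arrays, against -1.44, -1.43 and -2.48 on the control arrays. It rose by 3.45 (SE 0.49, adjusted p = 0.0402) and no other gene of the list passed. With slide as a block and within slide 1, 2 genes of the list passed, Atf3 among them. Replicate 3 was the lowest of both genotypes. Leaving out sMaf CKO replicate 1 or 2 ended that call (adjusted p = 0.155 and 0.105), as did leaving out control replicate 1 or 3 (adjusted p = 0.160 and 0.113). Quantile normalization (adjusted p = 0.0624) and spike-in scaling (adjusted p = 0.114) ended it too.

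**Figure D4:**
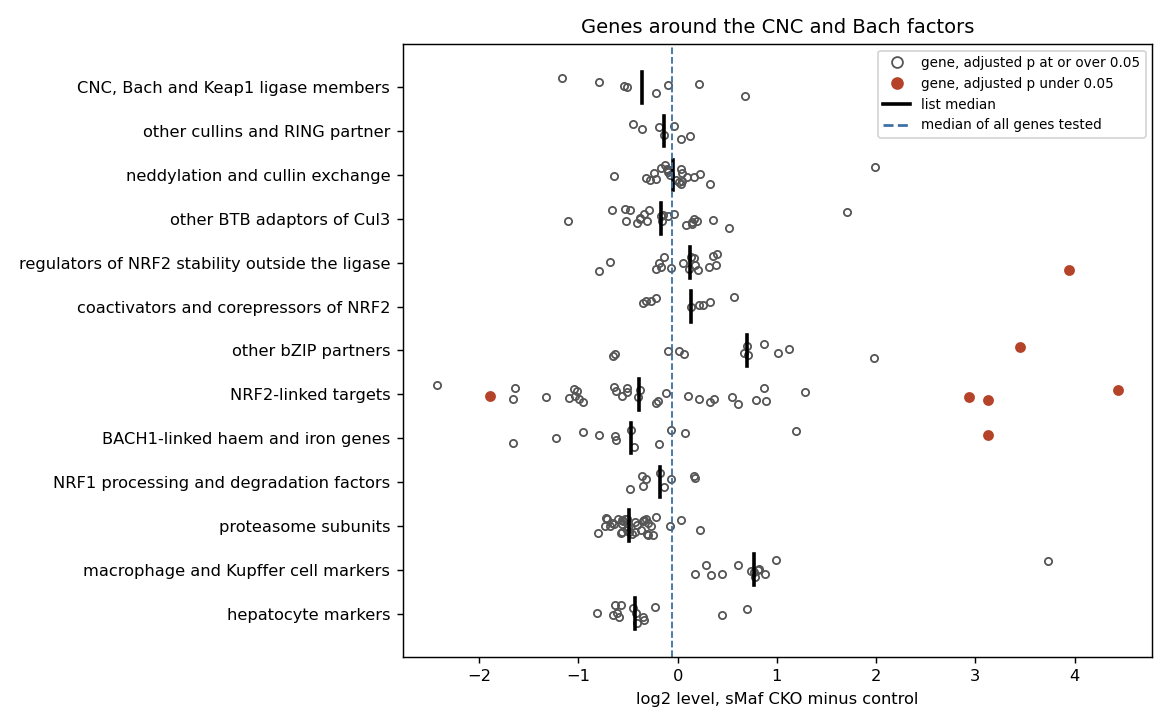
Differences in log2 level, sMaf CKO minus control, of the tested genes of 13 lists, with the CNC, Bach and ligase genes in the top row. Each circle is a gene, filled where its adjusted p was under 0.05, black bars are list medians and the dashed line is the median of all genes tested, -0.05. Filled circles appear in 4 of the lists. Genes of the list labelled proteasome subunits, which includes some assembly chaperones, gather left of 0, while macrophage and Kupffer cell markers lie right of it.

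Whole liver was measured, so fewer cells of a type and less RNA per cell cannot be told apart. Of the 14 hepatocyte markers with a probe, all were well above background on every array, as the tissue label calls for, and their summed signal was 2321 to 3947 on sMaf CKO arrays and 3173 to 3919 on control arrays, in units of the array's 75th percentile. Their median difference was -0.43, with 12 of 14 negative and 0 passing, and it was -0.27 without sMaf CKO replicate 1, -0.17 under quantile normalization and -0.12 under spike-in scaling. The smallest p belonged to Hpx (0.70), which encodes the haem carrier hemopexin, and Apoa1 (-0.57), an apolipoprotein gene. Macrophage and Kupffer cell markers summed to 225 to 470 on sMaf CKO arrays and 99.3 to 173 on control arrays, with no overlap. All 13 tested were positive with a median of 0.77, 0 passed, and Marco, a scavenger receptor, had the smallest p (3.73, adjusted p = 0.0858), followed by Cd5l (0.88). Marco did pass when slide was a block (adjusted p = 0.0107), and the median was 0.46 without control replicate 3. Stellate and fibroblast markers summed to 138 to 170 on sMaf CKO arrays and 94.7 to 122 on control arrays, also without overlap. All 10 were positive with a median of 0.45 and 0 passed, and Reln (0.84) and Lrat (0.79) had the smallest p. Cholangiocyte markers were positive in 7 of 7 with a median of 0.30, and T and NK cell markers in 8 of 12 with a median of 0.46, which was -0.08 without sMaf CKO replicate 1. Endothelial markers had a median of -0.15 (0.17 under spike-in scaling). The neutrophil median was 0.09, but -0.25 without control replicate 1 and -0.08 without sMaf CKO replicate 3. The B cell median was 0.06, but -0.07 without sMaf CKO replicate 1 and -0.09 without sMaf CKO replicate 3. In these smaller lists the genes with the smallest p were Epcam (0.89) and Spp1 (1.03) for cholangiocytes, Ncr1 (-0.55) and Cd8a (1.30) for T and NK cells, and Kdr (-0.56) and Stab2 (-0.46) for endothelium. They were Retnlg (0.90) and S100a9 (0.49) for neutrophils, Gp1bb (-0.73) and Clec1b (0.47) for megakaryocytes, Tspo2 (-0.57) after Klf1 for erythroid cells, and Fcmr (-0.29) among those of B cells, and none of them passed. Elane, Pax5 and Blk were above background on no array. The part of these shifts in the levels of Nfe2l2, Bach1, Keap1, Cul3 and Hmox1 was not tested.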

How the data were processed

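Liver RNA was read on 6 one-colour Agilent arrays, with 500 ng of total RNA amplified and labelled with Cy3, per the labels' protocols. Per the file headers, the authors obtained spot intensities in Agilent Feature Extraction 10.7.3.1, whose protocol was GE1_107_Sep09. The deposited processed intensity is background-subtracted within its array. The deposited value table holds log2 values that match the scaled log2 intensities used here once each probe is centred on its median, and its column medians were -0.10, -0.11 and 0.09 for sMaf CKO and 0.05, -0.02 and 0.08 for control. It served as an alternative.

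Control and outlier spots were left out, spots of a probe were averaged, and log2 intensities were scaled to each array's 75th percentile. A probe was kept if well above background on 3 or more of the 6 arrays (27858 of 41174), and 52 of these lacked a value on some array, none of them a probe of the CNC, Bach and ligase genes. Probes were named through their accession in a RefSeq gene table of build GRCm38.p6, which matched 26690 probes to 1 symbol and left 14484 unmatched. The headers name build mm9 for the array, so no probe coordinates are given. The probe with the highest mean stood for a gene. Genotypes were compared in R 4.3.3 by lmFit and eBayes of limma 3.58.1, with genotype as the only term, Benjamini-Hochberg adjustment across all genes tested, and a threshold of 0.05. Figures were drawn with matplotlib 3.10.9. The test was checked on simulated data.

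The genes, the 22 lists and the alternatives were chosen with earlier results of these data known. The text names all the CNC, Bach and ligase genes, the small Maf genes, up to 4 genes past the threshold in each list or else those with the smallest p, and the 3 genes nearest to Nfe2l2, Bach1 and Keap1. One gene that this rule names is not reported here. Alternatives were normexp background correction (offset 50, on median spot and background signals, since the files hold no mean signal), quantile and median scaling, scaling on 4 bright spike-in probes, the value table, no or a stricter filter on dim probes, averaging a gene's probes, replicate and slide blocks, trend and robust settings, fits within each slide and leaving out each array.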

Additional observations from a re-analysis of the deposited data

How the results depend on the processing

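None of the 8 CNC, Bach and ligase genes passed under any of the 18 alternatives with a test. None of their 12 probes passed where probes were tested singly, which leaves out the value table and the mean of a gene's probes, and the filter on all 6 arrays kept 11 of them. Nfe2l2 kept its sign in all 20 settings, from 0.63 to 0.996, as did Bach1 (-1.99 to -0.75), Keap1 (-0.999 to -0.48), Cul3 (-0.95 to -0.23) and Rbx1 (0.05 to 0.53). The lowest adjusted p in any setting was 0.106 for Nfe2l2, 0.105 for Bach1 and 0.117 for Keap1. The count of genes called over all genes was 114, and 112 with the value table and 104 with the mean of a gene's probes. It was 74 with normexp, 22 with quantile normalization, 252 with median scaling, 14 with spike-in scaling, 1 with no filter on dim probes, 267 with probes above background on all 6 arrays, 340 with a slide block, 308 with trend and robust settings and 196 within slide 1. With each array left out in turn it ran from 3 to 294, at 3, 11 and 294 without sMaf CKO replicate 1, 2 or 3 and at 6, 175 and 22 without control replicate 1, 2 or 3. The cause was not tested.

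With the replicate number as a block 291 genes were called and none of the 8. The numbers were not taken to pair the samples: deviations of same-numbered arrays from their group means correlated at 0.063, 0.166 and 0.424, and sMaf CKO replicate 1 correlated best with control replicate 2.

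Signs that turned were those of Nfe2 (0.72 within slide 2, and -1.10 to 0.058 with an array left out), Nfe2l1 (0.10 with quantile and 0.22 with spike-in scaling, and -0.23 to 0.10 with an array left out) and Nfe2l3 (0.10 with spike-in scaling, 0.37 within slide 2, and -0.61 to 0.063 with an array left out). The same held for Maff (-0.37 to 0.52 with an array left out), Mafk (-0.29 within slide 2, and -0.070 to 0.44), Fcmr (0.032 with spike-in scaling, and -0.82 to 0.25), Tspo2 (0.019 within slide 2) and Ncr1 (0.026 with normexp). Spike-in scaling moved the median of all genes to 0.26, which by construction adds the same amount to every gene. Over 57 named genes and 1080 values, 992 kept direction and side of the threshold. Calls were gained in 22 of these values: Mafg passed in 7 of 18 alternatives, Marco in 6, Cand2 and Enc1 in 3 each, and Klf1, N4bp2 and Mpdz in 1 each. Signal over background limits the dimmer Nfe2l3 probe, which was well above background on 3 of 6 arrays.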
